A study of Pararge aegeria with 4 samples.

Results

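The genes described here are the histones of the Speckled Wood butterfly Pararge aegeria and the enzymes and chaperones that act on them, as measured in ovary mRNA. A contig of the ovary transcriptome was a member when any of its annotation columns contained the word histone, and contigs were joined into the Trinity gene to which the assembler had assigned them. The word was found in 143 of 17636 contigs, which belonged to 89 of 9873 Trinity genes. Of these 89 genes, 13 had a histone as their protein (BLASTx) hit, and 53 were histone-modifying enzymes or subunits of their complexes. Another 6 were grouped as chaperones or other proteins tied to histones or chromatin. A further 8 genes were named after SETMAR, a methyltransferase fused to a mariner transposase. For 4 genes a histone was named by nucleotide similarity alone, and for 5 the word came from a name or a Gene Ontology term that the rest of the annotation did not share. No contig was dropped for a mouse hit.

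The study sequenced 1 ovary mRNA library from each of 2 laboratory-reared populations, Zonza (a stock from Corsica, newly set up at the time) and St Hubert (a stock from southern Belgium, kept in the laboratory for longer). Each library was made from the ovaries of 2 mated females, killed 6 days after mating and dissected free of fat and surrounding tissue. Reads of both populations were assembled together, and the level of each contig in each library was given as FPKM, the fragments mapped to a contig scaled to its length and to all mapped fragments of the library. With 1 library per population no difference below has a replicate check, population cannot be told apart from library, stock history or the individual females, and no test was made.

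DNA in the nucleus is wound on nucleosomes made of the core histones H2A, H2B, H3 and H4, and the linker histone H1 binds the DNA between them. In animals most histone mRNA is made while DNA is copied and ends in a stem-loop in place of a poly(A) tail, whereas the variants H3.3 and H2Av are made throughout the cell cycle from polyadenylated mRNA. Methyltransferases, demethylases, acetyltransferases and deacetylases add marks to histone tails or remove them, and in Drosophila nurse cells supply the egg with histone mRNA and protein for the first divisions of the embryo. How RNA was selected for these libraries is not given in the sources used here.

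Depth and fragment length were fitted so that low FPKM values of genes with a single contig fell near whole numbers of fragments. At the best fit, 173 of 176 values for Zonza and 150 of 153 for St Hubert lay within 0.1 of a fragment. The fit gave about 20400000 mapped fragments in Zonza and 21650000 in St Hubert, with fragment lengths of 134 and 135 bases. The fragments of each gene were estimated from this fit, which was not checked against other data. Each fold below is the Zonza FPKM divided by the St Hubert FPKM, followed by a 95% counting interval. The interval is the exact binomial one for the estimated fragments, rescaled to the FPKM fold. Where contigs summed together differ in length, the ratio of fragments can differ from the fold, and the interval is approximate. KAT2A, for example, had an estimated 639 fragments in Zonza and 846 in St Hubert beside a fold of 0.447. These intervals cover counting error only, not differences between females or libraries, and fragments copied by PCR are not independent molecules. A gene was called higher or lower in Zonza when (FPKM + 1) differed at least 2-fold and its mean FPKM was at least 1. Of 9459 genes above that minimum, 5.20% were called higher in Zonza and 5.11% lower, and the median log2 ratio of (FPKM + 1) was -0.01 with quartiles of -0.29 and 0.28.

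Among the 89 genes, 86 passed the minimum, and 6 were called higher in Zonza (background 5.20%) and 1 lower (background 5.11%). Their median log2 ratio was 0.13. The difference was unevenly spread over the groups. The 13 histone genes had a median log2 ratio of 0.60, with quartiles of 0.29 and 0.76, while the 51 enzyme genes that passed had a median of 0.10, with quartiles of -0.16 and 0.28. Of the histone genes, 12 of 13 were above 0 on this scale (background 49.3%) and 10 of 13 lay above the upper quartile of all genes. The counting interval of the fold lay above 1 in 11 of the 13 (background 33.7%) and below 1 in 1 (background 34.6%). The 2-fold call was reached by 2 of the 13. Of the enzyme genes, 30 of 51 were above 0, 31 lay between the quartiles of all genes, 14 above and 6 below, and the counting interval was above 1 in 21 (background 33.7%) and below 1 in 10 (background 34.6%). When the contig with the highest mean FPKM stood for each gene in place of the sum, an alternative chosen after seeing the data, 9 of 13 histone genes were above 0 and their median was 0.40, and the enzyme median was -0.02.

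**Figure D1:**
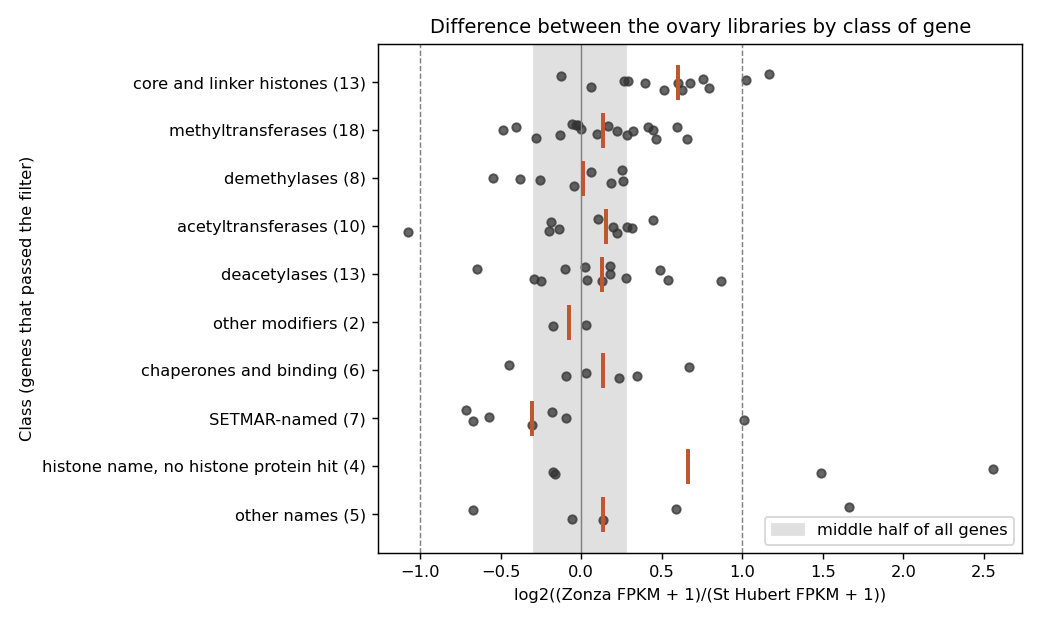
Log2 ratio of (FPKM + 1), Zonza over St Hubert, for the 86 genes that passed the minimum, by class. Each point is a gene, the orange bars are class medians, the grey band is the interquartile range of all 9459 genes and the dashed lines mark 2-fold. The histone genes sit mostly right of the band, with a median of 0.60, and the medians of the methyltransferases, demethylases, acetyltransferases and deacetylases lie between 0.01 and 0.15.

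The 13 histone genes fell into 2 ranges of level. For 7 of them mean FPKM was between 318 and 2168, and for the other 6 it was between 4.96 and 50.8, with no histone gene in the gap. Of the 7 abundant genes, 6 were above 0 on the log2 scale, where 44.3% of all genes with a mean of at least 100 FPKM were. The set of 7 held 1 gene each for H1, H2A, H2B, H3 and H4 and the single genes for H2Av and H3.3. The lower set held a second H1, H2B, H3 and H4 gene and 2 more H2A genes. Histone genes occur in similar copies, and RSEM shares out fragments that map to several contigs, so the split of fragments between genes of one type is uncertain and sums per type are given as well.

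Histone H4, which pairs with H3 at the core of the nucleosome, was the most abundant member by the mean of the 2 libraries, although H2A was higher in St Hubert. The H4 gene c8860_g2 had 2611 FPKM in Zonza, against 1724 FPKM in St Hubert, a fold of 1.515 (1.48 to 1.55). It ranked 17th of all genes by mean FPKM. The second H4 gene, c5943_g1, had 10.5 FPKM in Zonza, against 4.66 FPKM in St Hubert, a fold of 2.255 (1.516 to 3.41) that rested on an estimated 81 and 38 fragments. It was one of the 2 histone genes called higher.

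H3 carries the tail lysines that most of the enzymes below act on. The abundant H3 gene, c14618_g2, had 1597 FPKM in Zonza, against 1211 FPKM in St Hubert, a fold of 1.32 (1.29 to 1.35). Its protein hit was histone H3, but its name from an earlier ovary transcriptome was thioredoxin peroxidase 1. The minor H3 gene, c1888_g1, had 19.1 FPKM in Zonza, against 7.92 FPKM in St Hubert, a fold of 2.41 (1.855 to 3.14), and was the other histone gene called. Both members of the H3 and H4 pair were thus higher in the Zonza library at both levels of abundance, although with a pseudocount of 5 neither minor gene was called (log2 0.90 for H3 and 0.68 for H4).

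H2A stood apart from the other core histones. The abundant H2A gene, c17965_g1, had 1960 FPKM in Zonza and 2135 FPKM in St Hubert, a fold of 0.918 (0.903 to 0.9335), and it was the one histone gene of 13 that was lower in Zonza. The other H2A genes had folds above 1, with 59.95 FPKM in Zonza against 41.6 FPKM in St Hubert for c13622_g1 (fold 1.44, 1.33 to 1.56). For this gene the direction turned on the contig used, since its first contig had 36.6 FPKM in Zonza and was listed at 0 in St Hubert, and its second had 23.3 FPKM in Zonza and 41.6 FPKM in St Hubert. For c7734_g1 the values were 9.71 FPKM in Zonza and 5.33 FPKM in St Hubert (fold 1.82, 1.36 to 2.46). Since c17965_g1 held 96.6% of all H2A FPKM in Zonza and 97.9% in St Hubert, it set the sum for the type.

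H2B, the partner of H2A in the nucleosome, showed the largest ratio among the abundant genes. The H2B gene c13002_g1 had 1402 FPKM in Zonza, against 806 FPKM in St Hubert, a fold of 1.74 (1.70 to 1.775). The excess came from 1 of its contigs, since the first contig had 627 FPKM in Zonza and 806 FPKM in St Hubert, and the second had 775 FPKM in Zonza and was listed at 0 in St Hubert. The minor H2B gene, c7734_g2, had 8.42 FPKM in Zonza and 6.84 FPKM in St Hubert, and its interval for the fold, 0.902 to 1.68, included equal levels. On the contig with the highest mean, both H2B genes were below 0 on the log2 scale (-0.36 for c13002_g1 and -0.29 for c7734_g2).

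Linker histone H1, which compacts chromatin, was also higher in the Zonza library. The gene c12032_g1 had 839.7 FPKM in Zonza, against 524 FPKM in St Hubert, a fold of 1.60 (1.56 to 1.65). The minor gene c12317_g1 had 6.23 FPKM in Zonza and 3.69 FPKM in St Hubert, a fold of 1.69 (1.10 to 2.62). The ratio was therefore close in the abundant and the minor gene, although the second interval is wide.

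The replacement variants had smaller ratios than the abundant H1, H2B, H3 and H4 genes, and larger ones than the abundant H2A gene. H3.3, which is placed in chromatin outside DNA replication, had 598 FPKM in Zonza and 574 FPKM in St Hubert, a fold of 1.04 (1.02 to 1.07). H2Av, the fly variant that combines the roles of H2A.Z and H2A.X, had 349.6 FPKM in Zonza and 286 FPKM in St Hubert, a fold of 1.22 (1.18 to 1.265). Without these variants the remaining 11 genes had a median log2 ratio of 0.62, against 0.06 for H3.3 and 0.29 for H2Av.

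**Figure D2:**
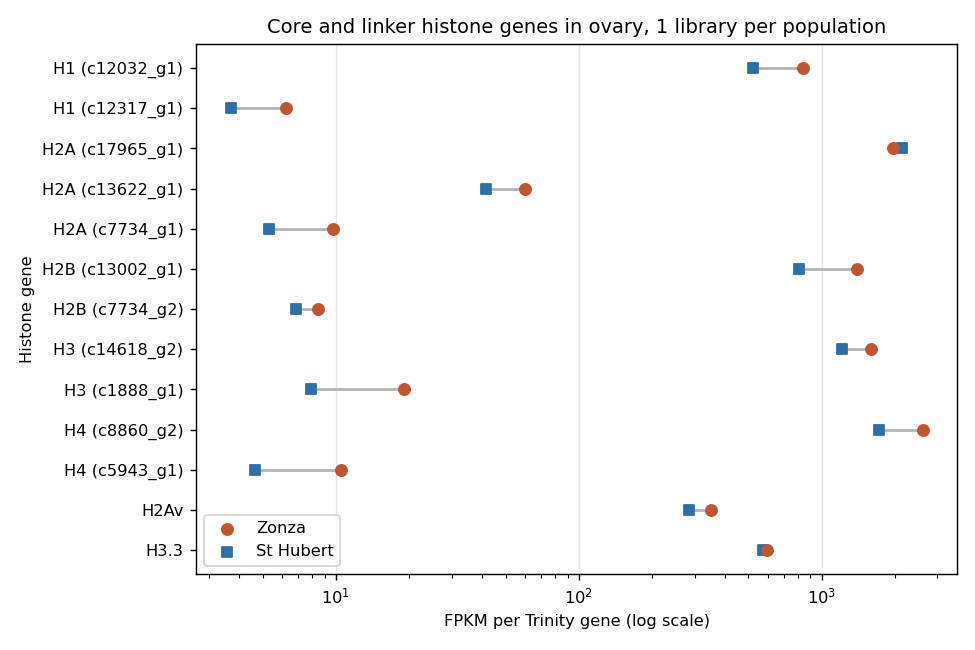
FPKM of each of the 13 histone genes on a log scale, with Zonza as circles and St Hubert as squares. The Zonza circle lies right of the St Hubert square in 12 genes and left of it in H2A (c17965_g1), and a gap separates the 7 genes with a mean of 318 FPKM or more from the 6 with a mean of 50.8 or less.

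Summed over the 13 genes, histone FPKM was 9472.5 in Zonza and 7330.5 in St Hubert, a fold of 1.29 (1.28 to 1.30). The sum per type had a fold of 1.735 for H2B (1410.8 FPKM in Zonza, 813 FPKM in St Hubert), 1.60 for H1, 1.52 for H4 and 1.33 for H3. For H2A the fold was 0.93 (0.915 to 0.946), from 2029.8 FPKM in Zonza and 2182 FPKM in St Hubert. The make-up of the histone mRNA pool differed accordingly. H2A made up 21.4% of histone FPKM in Zonza and 29.8% in St Hubert, and H4 made up 27.7% in Zonza and 23.6% in St Hubert. The leading type was thus H4 in the Zonza library and H2A in the St Hubert library. The level of H2A relative to H2B was 1.44 in Zonza and 2.68 in St Hubert, while H4 relative to H3 was 1.62 in Zonza and 1.42 in St Hubert. The H2B values depend on adding the second contig of c13002_g1, with 775 FPKM in Zonza and listed at 0 in St Hubert. Its first contig had 627 FPKM in Zonza and 806 FPKM in St Hubert, so the direction for H2B turned on the contig used. The abundant genes together had a fold of 1.29, and the 6 minor genes together one of 1.625, from 113.9 FPKM in Zonza and 70.1 FPKM in St Hubert.

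**Figure D3:**
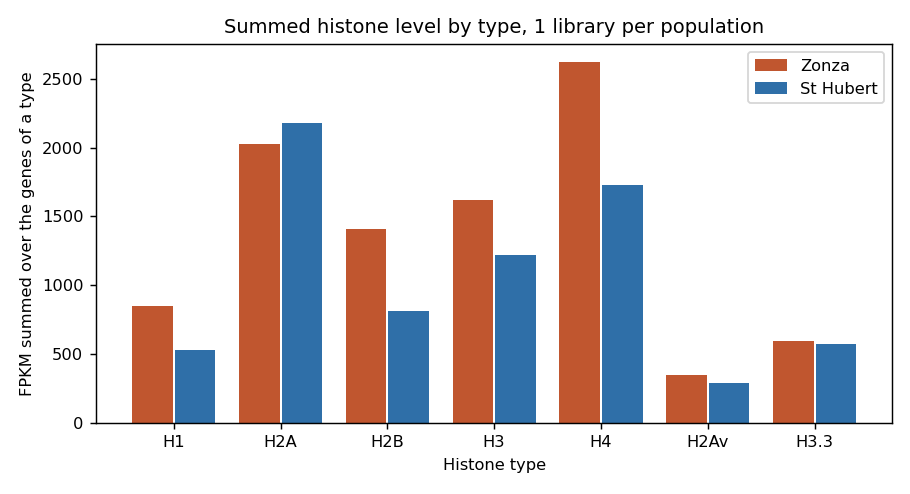
FPKM summed over the genes of each histone type, with the Zonza bar left of the St Hubert bar. H4 is the tallest bar for Zonza at 2622 FPKM and H2A the tallest for St Hubert at 2182 FPKM, and H2A is the one type with the lower bar in Zonza.

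In H1 and H2B the abundant gene matched database proteins less closely than the minor gene. This was not so in H3 and H4, and H2A was mixed. The genes were chosen for a histone as their protein (BLASTx) hit, but the percent similarity was not used to choose them or to split them by level. The mean similarity to database proteins was 73.7% for the abundant H2B, against 99.35% for the minor H2B. It was 70.8% for the abundant H1, against 95.35% for the minor H1. For H2A it was 87.1% for the abundant gene, against 78.45% and 100% for the 2 minor genes. H3, H4, H3.3 and H2Av all matched at 97.9% or more.

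Of the 4 genes named a histone without a histone protein hit, 2 were called higher. A contig of 7855 bases was named histone H2A after an earlier ovary transcriptome of the species. Its nucleotide hit at NCBI was instead to ribosomal RNA of Papilio xuthus, another butterfly. This ribosomal contig had 1777 FPKM in Zonza, against 301 FPKM in St Hubert, a fold of 5.905 (5.85 to 5.96), and is not counted as a histone. The other called gene, c19260_g2, has a His2A name and no protein hit, with 16.5 FPKM in Zonza and 5.23 FPKM in St Hubert (fold 3.155), on a different contig in each library. A gene with a His3.3B name and no protein hit had 295 FPKM in Zonza and 333 FPKM in St Hubert, and a gene with an H1 name but a protein hit to dpy-30, a subunit of methyltransferase complexes, had 41.45 FPKM in Zonza and 46.6 FPKM in St Hubert.

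The enzymes were far less abundant than the histones. The median level of those that passed was 8.79 FPKM, against 318 FPKM for the histones, and no enzyme gene exceeded a mean of 70.6 FPKM. Summed over the 53 enzyme genes, FPKM was 790.2 in Zonza and 756.9 in St Hubert, a fold of 1.04. Of the 51 that passed the minimum, 0 were called higher in Zonza (background 5.20%) and 1 was called lower (background 5.11%). Besides the classes below they included MYSM1, which removes ubiquitin from H2A, with 26.25 FPKM in Zonza and 25.7 FPKM in St Hubert, and a nucleosomal histone kinase.

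Methyltransferases, 20 genes of which 18 passed, had a median log2 ratio of 0.13, with values between -0.48 and 0.66 and no call. The most abundant was E(z), the Polycomb enzyme that methylates H3 lysine 27 in Drosophila, with 37.8 FPKM in Zonza and 41.5 FPKM in St Hubert. EHMT2, whose mammalian form methylates H3 lysine 9, had 32.3 FPKM in Zonza and 24.01 FPKM in St Hubert, a fold of 1.35 (1.27 to 1.42). Its direction differed between contigs, the first having 10.3 FPKM in Zonza and 20.3 FPKM in St Hubert and the second 21.97 FPKM in Zonza and 3.72 FPKM in St Hubert. The third by level was setd3, known in mammals to methylate actin, with 24.6 FPKM in Zonza and 17.8 FPKM in St Hubert. All lay well inside 2-fold. The widest ratios were those of eggless and carmer. For eggless, the H3 lysine 9 methyltransferase that female flies need in the germ line, the levels were 7.78 FPKM in Zonza and 4.56 FPKM in St Hubert, a fold of 1.71 (1.498 to 1.945). For carmer, an arginine methyltransferase, they were 10.4 FPKM in Zonza and 6.51 FPKM in St Hubert, a fold of 1.59 (1.38 to 1.84). The lowest ratio of the class was that of the nsd2 gene c19815_g1, with 6.77 FPKM in Zonza and 9.85 FPKM in St Hubert (fold 0.687, 0.6295 to 0.750). Others lay closer to equal levels. Su(var)3-9, the H3 lysine 9 enzyme of heterochromatin, had 14.98 FPKM in Zonza and 13.2 FPKM in St Hubert, and Suv4-20, which adds further methyl groups to H4 lysine 20, had 18.3 FPKM in Zonza and 19.1 FPKM in St Hubert. Of the trithorax group, which keeps genes active, ash2 had 13.6 FPKM in Zonza and 10.98 FPKM in St Hubert (fold 1.24, 1.09 to 1.41). The weakly expressed ash1 had 2.23 FPKM in Zonza and 2.28 FPKM in St Hubert, and the trithorax gene c17733_g3 had 4.34 FPKM in Zonza and 3.57 FPKM in St Hubert. A trithorax-like gene and a KMT2C-like gene were below the minimum, at no more than 1.07 FPKM in either library.

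Demethylases, which remove methyl groups from histone lysines, had a median log2 ratio of 0.01 over 8 genes, 4 of them above 0. The gene c18707_g1, a JmjC-type enzyme named JHDM2C, had 44.8 FPKM in Zonza and 42.9 FPKM in St Hubert. The H3 lysine 4 demethylase lid had 25.4 FPKM in Zonza and 21.04 FPKM in St Hubert, and UTX, which removes methyl groups from H3 lysine 27, had 14.9 FPKM in Zonza and 12.98 FPKM in St Hubert. The folds of these gene sums were 1.04, 1.21 and 1.15, but on the contig with the highest mean all 3 log2 ratios were below 0 (-0.26 for c18707_g1, -0.67 for lid and -1.39 for UTX). The widest ratios belonged to 2 weakly measured genes, the JmjC enzyme PHF8 with 3.3 FPKM in Zonza and 5.28 FPKM in St Hubert (fold 0.625, 0.402 to 0.959) and the JHDM2C gene c6329_g1 with 3.91 FPKM in Zonza and 5.39 FPKM in St Hubert (fold 0.725, 0.413 to 1.255).

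Acetyltransferases, which add acetyl groups to histone lysines, had a median log2 ratio of 0.15 over 10 genes. The most abundant was the type B enzyme, which acetylates new histones before they reach chromatin, with 57.2 FPKM in Zonza and 53.05 FPKM in St Hubert. A gene with a KAT6A name, though another column calls it ubi-d4, had 35.01 FPKM in Zonza and 38.6 FPKM in St Hubert, and nejire, the fly CBP coactivator, had 36.75 FPKM in Zonza and 31.4 FPKM in St Hubert. Tip60, which acetylates H4 and H2A variants, had 26.4 FPKM in Zonza and 20.97 FPKM in St Hubert (fold 1.26, 1.15 to 1.38), and KAT8, the fly dosage compensation enzyme mof, had 14.75 FPKM in Zonza and 12.7 FPKM in St Hubert. At the low end of the class, the KAT6B gene c27534_g1 had 2.05 FPKM in Zonza and 1.24 FPKM in St Hubert (fold 1.65, 1.05 to 2.62). KAT2A, the Gcn5 enzyme of the SAGA complex, was the one enzyme called, with 8.57 FPKM in Zonza and 19.2 FPKM in St Hubert (fold 0.447, 0.403 to 0.496). This call came from a second contig of 823 bases without a histone name, listed at 0 in Zonza and at 10.45 FPKM in St Hubert. The contig with the KAT2A hit had 8.57 FPKM in Zonza and 8.72 FPKM in St Hubert, a fold of 0.983.

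Deacetylases and the subunits of their complexes had a median log2 ratio of 0.13 over 13 genes, 9 of them above 0, with no call. SAP18, a subunit of the Sin3 complex, had 39.5 FPKM in Zonza and 32.5 FPKM in St Hubert, and SAP30, another Sin3 subunit, had 17.4 FPKM in Zonza and 21.5 FPKM in St Hubert. The widest ratio was that of c15269_g1, a gene for the Sin3 subunit SAP130, with 10.4 FPKM in Zonza and 5.23 FPKM in St Hubert (fold 1.98, 1.53 to 2.58), just inside the 2-fold limit. A second SAP130 gene, c17129_g1, had 10.6 FPKM in Zonza and 6.98 FPKM in St Hubert (fold 1.52, 1.30 to 1.78). Both SAP130 genes were higher in Zonza, but whether they are pieces of 1 gene was not tested. An HDAC4-like gene, c13641_g1, was lower, with 6.62 FPKM in Zonza and 10.9 FPKM in St Hubert (fold 0.605, 0.4875 to 0.749). The catalytic subunit Rpd3, the fly form of HDAC1, had 17.6 FPKM in Zonza and 18.9 FPKM in St Hubert.

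HDAC6, a deacetylase best known for acting on tubulin, had 8.95 FPKM in Zonza and 8.1 FPKM in St Hubert, and HDAC11 had 5.7 FPKM in Zonza and 4.91 FPKM in St Hubert. The counting interval of the fold lay above 1 in 4 of the 13 genes (background 33.7%) and below 1 in 2 (background 34.6%).

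The HDAC8 gene had the highest sum among the enzymes, 71.5 FPKM in Zonza and 69.7 FPKM in St Hubert, but most of it came from contigs with another name. Of its 8 contigs, 4 had a protein hit to the ubiquitin-conjugating enzyme E2 L3. The 4 with an HDAC8 hit summed to 33.8 FPKM in Zonza, against 10.6 FPKM in St Hubert, a fold of 3.2. The gene thus passed the 2-fold limit on its HDAC8 contigs and not on the gene sum, and how fragments were shared between the overlapping contigs was not tested.

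Histone chaperones carry histones to and from DNA, and they were grouped here with other proteins tied to histones or chromatin. Caf1, the histone-binding subunit of the chromatin assembly factor, had 119.9 FPKM in Zonza and 128 FPKM in St Hubert (fold 0.937, 0.9002 to 0.975). ASF1, which hands H3 and H4 to assembly factors, had 36.9 FPKM in Zonza and 50.7 FPKM in St Hubert (fold 0.7275, 0.667 to 0.793). Both folds were below 1, unlike those of H3 and H4, and neither reached the 2-fold limit. The gene named for the histone RNA hairpin-binding protein, which binds the stem-loop of histone mRNA, had 77.8 FPKM in Zonza and 48.55 FPKM in St Hubert (fold 1.60, 1.51 to 1.70). Most of that sum came from 2 contigs with a hit to the high mobility group protein 20a, and the contig with the hairpin-binding hit had 5.25 FPKM in Zonza and 3.95 FPKM in St Hubert. The group also held the helicase brahma, a histone H4 transcription factor and non-histone protein 10. Over its 6 genes the median log2 ratio was 0.13, with no call.

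SETMAR arose in primates by the fusion of a methyltransferase gene with a mariner transposase, and the nucleotide hits of several genes given its name here were to mariner elements of insects. Of 8, 7 passed the minimum, with a median log2 ratio of -0.30, and 1 was above 0. That gene, c19648_g1, had 12.3 FPKM in Zonza and 5.6 FPKM in St Hubert (fold 2.2, 1.69 to 2.89) and was called higher, but its one contig with a SETMAR name had 6.03 FPKM in Zonza and 3.23 FPKM in St Hubert and did not reach the limit. Of the genes with a stray name, one named after a Dictyostelium deacetylase had its protein hit to a lysosomal glucocerebrosidase, an enzyme of lipid breakdown. It had 406 FPKM in Zonza, against 128 FPKM in St Hubert (fold 3.18, 3.11 to 3.25). Of the 6 genes called higher, therefore, 2 were histones by their protein hit and 0 were enzymes that act on histones.

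Many member genes had more than 1 contig, which in an assembly of pooled reads can be splice forms or alleles of the females used. Of the 40 member genes with 2 or more contigs, 25 had a different leading contig in the 2 libraries (62.5%, background 53.9%), and 19 had a contig listed at 0 in one library and at 1 FPKM or more in the other (47.5%, background 47.9%). In 4 of the 40 genes (10%, background 5.62%), different contigs held at least 90% of the gene in the 2 libraries. One of them was HDAC3, a deacetylase of corepressor complexes, whose contig of 2779 bases had 8.76 FPKM in Zonza and was listed at 0 in St Hubert, while its contig of 2794 bases was listed at 0 in Zonza and had 8.61 FPKM in St Hubert. For pr-set7, which methylates H4 lysine 20, the first contig had 0.82 FPKM in Zonza and 16.2 FPKM in St Hubert, and the second had 14.97 FPKM in Zonza and was listed at 0 in St Hubert. Nucleosomal histone kinase, which phosphorylates H2A in flies, had 11.7 FPKM in Zonza on its first contig and 13.3 FPKM in St Hubert on its second. The gene sums differed little, with folds of 1.02 for HDAC3, 0.977 for pr-set7 and 0.877 for the kinase. The fourth was the His2A-named gene c19260_g2.

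**Figure D4:**
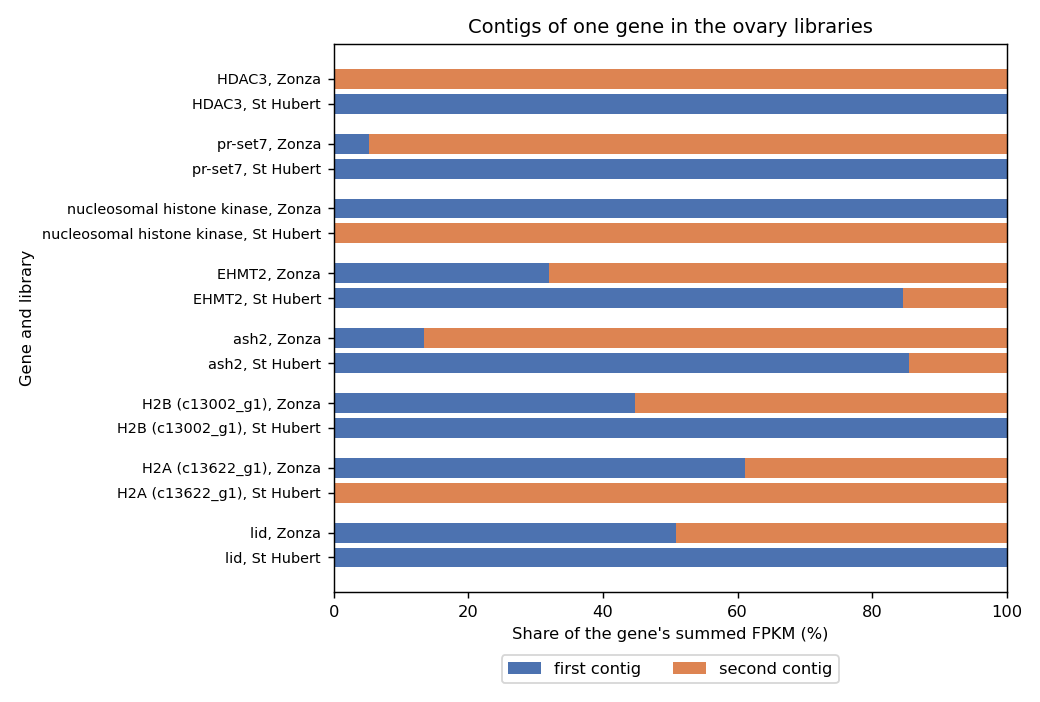
Share of the gene's summed FPKM held by the first (blue) and second (orange) contig of 8 genes with 2 contigs, with the Zonza bar above the St Hubert bar of each gene. The genes were picked after their values were seen to show full exchange (HDAC3, pr-set7, nucleosomal histone kinase), partial exchange (EHMT2, ash2) and a contig listed at 0 in St Hubert alone (H2B, H2A, lid).

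Genes that lack the word histone in their annotation were collected by keywords for chromatin and for DNA replication. Names alone were used, so the chromatin list also took in a mitochondrial poly(A) RNA polymerase and a gene with a lid demethylase hit, among others. The 77 chromatin partners had a median log2 ratio of 0.01, with 2 of 76 called higher (background 5.20%) and 1 lower (background 5.11%). The most abundant were a nucleosome assembly protein, with 849 FPKM in Zonza and 870.2 FPKM in St Hubert, and nucleoplasmin, a chaperone of H2A and H2B, with 735 FPKM in Zonza and 761 FPKM in St Hubert. A partner called higher had a domino name but no protein hit, with 378 FPKM in Zonza and 37.9 FPKM in St Hubert. Of the 41 DNA replication genes, 1 was called higher (background 5.20%) and 1 lower (background 5.11%), and 32 were above 0 (background 49.3%), with a median log2 ratio of 0.17. PCNA, the sliding clamp of the replication fork, had 245 FPKM in Zonza and 198 FPKM in St Hubert, and geminin, which restrains repeated replication, had 228 FPKM in Zonza and 203 FPKM in St Hubert. The replication genes as a list were thus mostly higher in the Zonza library, with a summed fold of 1.12, against 1.29 for the histones.

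Marker lists for the cells of the ovary and nearby tissue also differed between the libraries. Follicle cell genes (chorion and vitelline membrane names) summed to 11005 FPKM in Zonza and 3390.2 FPKM in St Hubert, a fold of 3.25, and 11 of 18 were called higher (background 5.20%). Germline genes summed to 1430.4 FPKM in Zonza and 1597 FPKM in St Hubert, a fold of 0.896, with 0 of 14 called in either direction. Fat body genes summed to 7371 FPKM in Zonza and 3259 FPKM in St Hubert. Of 8, 3 were called higher (background 5.20%) and 1 lower (background 5.11%). The 1 called lower had a prophenoloxidase 2 hit, with 0.22 FPKM in Zonza and 1.83 FPKM in St Hubert. A storage protein had 2.02 FPKM in Zonza and was listed at 0 in St Hubert. The keywords also took in yolkless, the vitellogenin receptor, with 155 FPKM in Zonza and 265 FPKM in St Hubert. Muscle (fold 0.959), haemocyte (0.866) and nervous system (0.943) lists had lower sums in Zonza. Of the haemocyte genes 4 of 9 were called lower (background 5.11%) and 0 higher, with a median log2 ratio of -0.42, of the muscle genes 1 of 33 was called in each direction, and of the nervous system genes 0 of 9 were called, with a median of 0.23. No gene matched the trachea keywords, oskar or protamine. These lists rest on names alone. Genes with a ribosomal RNA hit summed to 2130.0 FPKM in Zonza and 674 FPKM in St Hubert, of which the contig of 7855 bases held 1777 FPKM in Zonza and 301 FPKM in St Hubert. The part of these differences in the histone result was not tested, and in whole ovaries more cells of one type cannot be told apart from more RNA per cell.

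**Figure D5:**
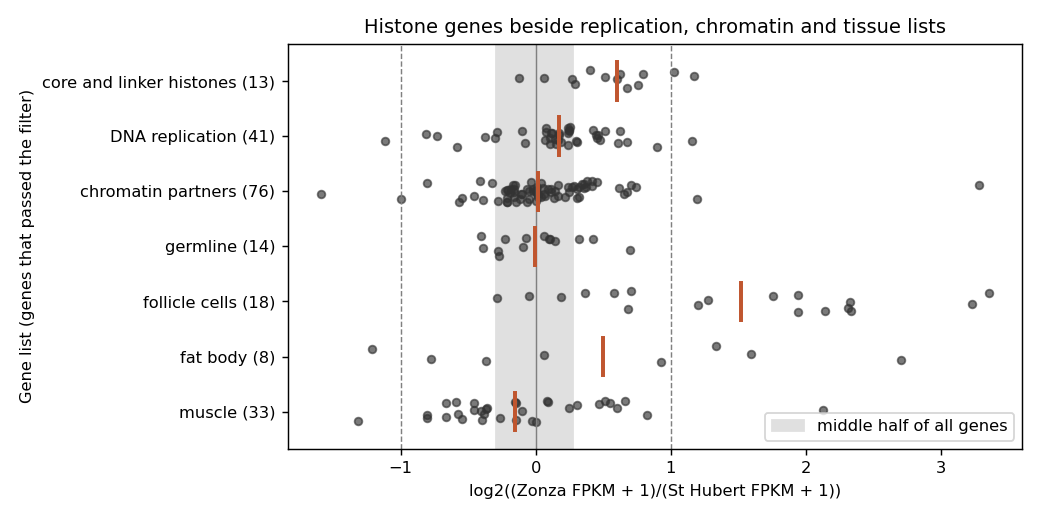
Log2 ratio of (FPKM + 1), Zonza over St Hubert, for the histone genes and the genes of 6 keyword lists that passed the minimum. Points are genes, orange bars are medians, the grey band is the interquartile range of all genes and the dashed lines mark 2-fold. The histone median of 0.60 lies between the replication median of 0.17 and the follicle cell median of 1.52.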

How the data were processed

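Ovary mRNA of the Zonza and St Hubert populations was measured in 1 library each. The authors trimmed the first 16 bases of every read, pooled the reads of both populations, assembled them with Trinity and deposited FPKM per contig from RSEM for contigs kept after BLAST annotation; Bowtie is named in the submitters' processing notes. The columns headed Corsica and Belgium were taken as Zonza and St Hubert, as the study's methods place them. No genome build applies.

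FPKM of all contigs of a Trinity gene were summed. Ratios used log2(FPKM + 1), genes with a mean FPKM of at least 1, and a 2-fold limit, without a test. Classes of genes were assigned by hand from the annotation. Members and lists were chosen with earlier results of these data known. All histone genes, every gene past 2-fold, and of each class of enzymes and chaperones the 3 highest by mean FPKM and the 2 with the largest ratio were named; genes named outside this rule were chosen after their values were seen. Fragments per gene were estimated from the spacing of low FPKM values, with up to 8 fragments used. In data simulated with counting error alone, 99.0% of 199 genes changed 4-fold and 0.519% of 9242 unchanged genes were called. The simulation held no differences between females or libraries, so these shares are not error rates of the calls in the real comparison. Small RNA counts and contig sequences were not used here. Alternatives were other limits, pseudocounts, filters, scalings, contig choices and annotation columns. Figures were drawn with matplotlib 3.10.9, and values computed with pandas 2.3.3, numpy 2.4.6 and scipy 1.17.1 under Python 3.11.15.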

Additional observations from a re-analysis of the deposited data

How the results depend on the processing

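The 6 genes called higher and 1 called lower became 16 and 5 at a limit of 1.5-fold, 2 and 0 at 3-fold, 3 and 0 with a pseudocount of 5, 28 and 14 contigs when each contig was taken on its own, and 9 and 8 when the contig with the highest mean FPKM stood for the gene, an alternative chosen after seeing the data. With histone required in the BLASTx name, 3 genes were called higher. The median log2 ratio of the histone genes was 0.48 with a pseudocount of 5, 0.40 with the highest contig and between 0.56 and 0.61 under the other alternatives run, and that of the enzyme genes was -0.022 with the highest contig and otherwise between 0.06 and 0.11. The summed histone fold of 1.29 was 1.45 when all 17 genes named a histone were added, which brings in the ribosomal contig, 1.18 with the highest contig, and between 1.22 and 1.28 under the other alternatives. When the contigs with a histone annotation alone were summed, also chosen after seeing the data, KAT2A was no longer called (log2 -0.02) and HDAC8 (log2 1.59), the SETMAR gene c19470_g4 (1.04) and SGF29, a SAGA subunit listed at 0 in Zonza and at 11.3 FPKM in St Hubert on its one contig with the word, passed the limit, while the SETMAR gene c19648_g1 (0.73) did not. A value counted as moved when its log2 ratio shifted by more than 0.1 and by more than the half-width of its counting interval. Of 40 named gene values, 14 moved when the highest contig stood for the gene, and 0 did under either rescaling. With the highest contig 8 changed sign, namely the H2B genes c13002_g1 (-0.36) and c7734_g2 (-0.29), the H2A gene c13622_g1 (-0.81), EHMT2 (-0.91), the JHDM2C gene c18707_g1 (-0.26), lid (-0.67), UTX (-1.39) and HDAC8 (-5.56). The highest contig of the HDAC8 gene had a protein hit to the ubiquitin-conjugating enzyme E2 L3, so -5.56 is not a value of an HDAC8 contig. No paired analysis was possible because each population has 1 mRNA library, and no library could be left out for the same reason. One fragment on a contig of 1 kilobase is worth 0.057 FPKM in Zonza and 0.053 FPKM in St Hubert, so ratios of genes near the minimum rest on few fragments.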
